A study of Mus musculus with 6 samples.

Results

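The comparison was between KP2 cells in which Irak4 had been knocked out (KO) and wild-type KP2 cells, described across all measured genes. Its 4 libraries, of 6 in the series, were chosen by their titles, which name 2 libraries as wild type and 2 as IRAK4 KO. KP2 cells were grown from a pancreatic tumour of the KPC mouse model, and the labels give the strain of both groups as C57BL/6J. Both groups grew in DMEM with serum and antibiotics at low passage, and no ligand or drug is named for either. The KO cells had been infected with plentiCRISPR vectors that carried guide RNAs against IRAK4. The labels do not say whether the KO cells were 1 clone or a pool, or whether wild-type cells received a vector. Nor do they say whether each library had its own culture. The p-values then reflect only how far the libraries of a group differed, and that spread may be technical. The remaining libraries, KO cells with a rescue, entered the filter on low counts, the scaling and the estimate of each gene's spread. They did not enter the wild-type and KO means.

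IRAK4 is a serine and threonine kinase that binds the adaptor MyD88 below Toll-like and interleukin-1 receptors, and it passes their signal to NF-kB and to the MAP kinases. Pancreatic cancer cells of this kind are epithelial cells of ductal character that secrete many growth factors, proteases and matrix proteins. Each mRNA level below is a normalised read count scaled to the size of its library (CPM), given for wild-type libraries 1 and 2 and then for KO libraries 1 and 2, or as group means ± SD with n = 2 libraries. A gene was called higher or lower in the KO where the adjusted p of edgeR's quasi-likelihood test, with Benjamini-Hochberg adjustment over all genes tested, was under 0.05.

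The 4 libraries held from 8325604 to 11505983 counts. Mitochondrial genes took 1.39% and 1.65% of the counts in wild type and 1.97% and 2.33% in the KO, and Gm42418, a non-coding gene that overlaps ribosomal RNA sequence, took 4.26% and 4.01% against 2.93% and 2.67%. The part of these shifts in the results below was not tested. Irak4, the targeted gene, is on chromosome 15 of GRCm38 at 94543643 to 94581815, and its mRNA stood at 37.9 and 37.6 CPM in wild type and 20.4 and 21.8 in the KO. The KO values lay below the wild-type values (log2 fold change -0.84, SE 0.33, adjusted p = 0.0573), but Irak4 was not called in the fit of all 6 libraries. The spread between the rescue libraries entered that test. Irak4 was called without a filter on low counts (adjusted p = 2.32e-10), from the wild-type and KO libraries alone (4.23e-07), and without the first (1.54e-07) or the second (7.47e-07) rescue library. Cutting by a guide RNA need not remove an mRNA, and the count spans the whole gene, so this level tells little about the labels. Its exons also overlap those of Twf1 on the opposite strand, and no strand setting is stated.

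Calls covered 46.8% of the genes tested. Of 12339 genes tested, 2867 were higher in the KO, which is 23.2%, and 2905 were lower, which is 23.5%. By at least 2-fold, 457 genes (3.7%) were higher and 943 (7.64%) lower. The median log2 fold change of all genes tested was 0.01, and the groups did not overlap in 76.6% of all genes tested. With the first wild-type library left out, 1688 genes were higher and 2005 lower, the lowest counts with any library left out. Every share below is to be read against these.

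**Figure D1:**
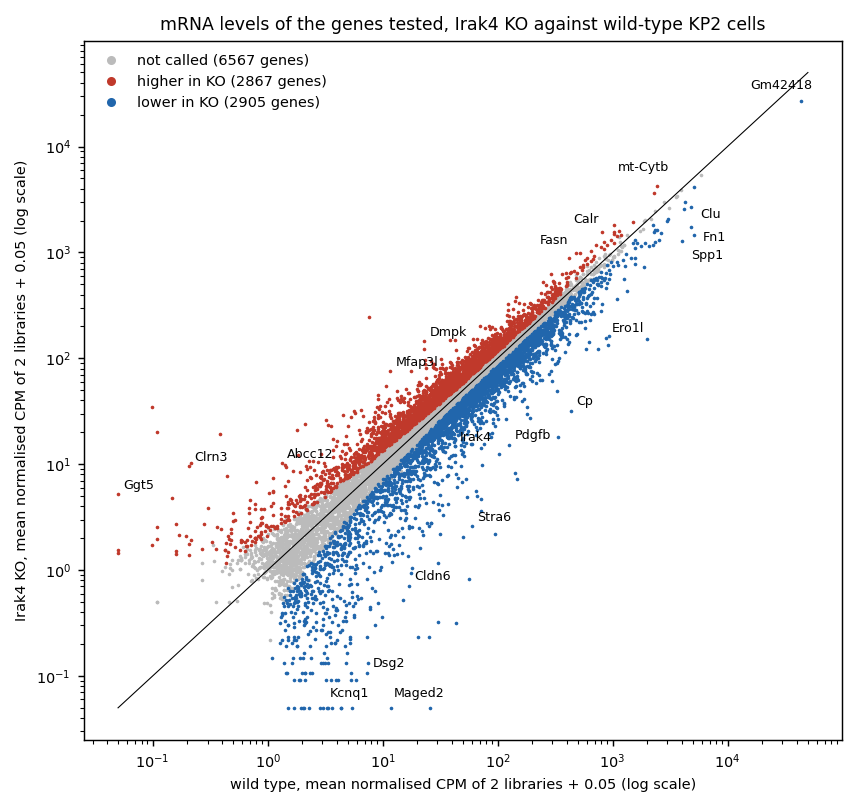
Mean normalised CPM of the 2 wild-type libraries (horizontal, log scale) against that of the 2 KO libraries (vertical, log scale), each with 0.05 added, 1 point for each of the 12339 genes tested; red points are the 2867 genes called higher, blue points the 2905 called lower, and the line marks equal levels. Of the genes called by at least 2-fold, 943 lie below the line and 457 above it, and the lowest, such as Maged2, reach 0 in the KO.

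Calls were spread unevenly over the kinds of gene. In the lowest quartile of genes by mean expression 12.1% were higher and 21.5% lower, in the next 27.9% and 17.8%, in the third 29.7% and 22.4%, and in the highest 23.3% and 32.4%. In the quartile of longest genes 30.1% were lower and 21.04% higher, against 19.1% and 21.2% in the shortest. Among 187 long intergenic non-coding RNAs 24.1% were lower and 4.81% higher, against 23.9% and 24.4% of 11518 protein-coding genes. Median levels were 2.56 CPM for these RNAs and 36.6 CPM for protein-coding genes. They were 15.4 CPM in the quartile of shortest genes and 60.1 CPM in that of longest genes. The part of expression level in these contrasts was not tested. By symbol, 17 of 33 tested Ddx genes, which encode RNA helicases, were higher and 2 lower, and 11 of 21 Gtf genes, which encode general transcription factors, were higher and 1 lower. Of 22 collagen genes 12 were lower and 1 higher. The 325 tested Zfp genes, mostly zinc finger proteins, had 46 higher and 40 lower, and the 199 Slc genes, which encode transporters of solutes, had 58 and 48. These families were chosen after their counts were seen.

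Several genes were lost or gained almost completely. Maged2, an X-linked gene of the MAGE family, had 216 counts over the wild-type libraries against 0 over those of the KO, which is at least 79.9-fold lower against a floor of 3 counts over the group. Kcnq1, a voltage-gated potassium channel, had 99 counts and 0, at least 36.6-fold lower. Dsg2, which encodes the desmosomal cadherin desmoglein, had 137 counts and 1, a ratio of 152 with a 95% counting interval from 26.8 to 6045. A single KO count was also left of Depp1, against 106 wild-type counts, a ratio of 118 with an interval from 20.6 to 4687. Hhip, which encodes an inhibitor of Hedgehog ligands, went from 100 counts to 1, a ratio of 111 with an interval from 19.5 to 4424. In the other direction Ggt5, a gamma-glutamyltransferase that acts on leukotrienes and glutathione conjugates, had 107 KO counts against 0 wild-type counts and was at least 32.2-fold higher. Clrn3, which encodes a tetraspan membrane protein, went from 3 to 193 counts, a ratio of 58.0 with an interval from 19.6 to 284. Floors and intervals cover counting error only. Kcnq1ot1, a long non-coding RNA on the strand opposite to Kcnq1, kept 750 and 449 counts in the KO libraries, where Kcnq1 had 0.

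Further genes with very low KO levels came from many functions. Mgarp, which encodes a mitochondrial protein, fell from 7.60 and 6.94 to 0.251 and 0.115 CPM (log2 fold change -5.14). Nod2, an intracellular sensor of bacterial cell wall fragments, fell from 7.96 and 9.09 to 0.167 and 0.344 CPM (log2 fold change -5.06). Stra6, which encodes the membrane receptor that takes up retinol, fell from 61.6 and 58.4 to 2.67 and 2.41 CPM (log2 fold change -4.54, SE 0.16, adjusted p = 1.8e-08). In each of these genes both KO libraries were far below both wild-type libraries. Stc1, the secreted hormone stanniocalcin, fell from 56.2 and 43.9 to 2.59 and 1.38 CPM (log2 fold change -4.58). Kbtbd11, which encodes a protein with a kelch repeat, fell from 168 and 126 to 6.69 and 7.79 CPM (log2 fold change -4.35) and was the most abundant gene among the 25 with the lowest fold changes. Gpr35, a G protein-coupled receptor, Ccdc184 and Bcl2l15, a relative of BCL2, were also among these 25.

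The genes with the highest fold changes were of low or moderate level. Mfap3l, which encodes a membrane protein, rose from 11.6 ± 0.604 to 75.5 ± 0.796 CPM (log2 fold change 2.71, SE 0.11, adjusted p = 3.0e-08). Dmpk, the kinase of myotonic dystrophy, rose from 25.5 and 20.2 to 117 and 172 CPM (log2 fold change 2.66). Scrn1, which encodes secernin, rose from 4.27 and 4.69 to 28.4 and 29.3 CPM. Plcb4, a phospholipase C, rose from 6.06 and 5.28 to 33.01 and 27.6 CPM. The KO libraries of each of these lay above both wild-type libraries. Abcc12, an ABC transporter gene, Cyp4b1, a cytochrome P450, Acsl6, a fatty acid CoA ligase, Tbx20, a T-box factor, and Nr1h3, the liver X receptor alpha, rose from under 2 CPM on average, with log2 fold changes of 2.96, 2.81, 2.73, 2.44 and 2.42. Sp100, Slfn2 and Usp18, which are known to respond to interferon, rose by 2.71, 2.43 and 2.48.

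Several abundant mRNAs with various products lost many CPM. Fn1, which encodes the matrix protein fibronectin, fell from 5386 and 4732 to 1458 and 1447 CPM (log2 fold change -1.80), the largest loss after that of Gm42418. Clu, which encodes the secreted chaperone clusterin, fell from 4776 and 4798 to 1511 and 1932 CPM (log2 fold change -1.48). Spp1, which encodes osteopontin, fell from 3809.6 and 4260.4 to 1172 and 1386 CPM (log2 fold change -1.66). The groups did not overlap in any of these, nor in the next 3 genes. Anxa2, which encodes a calcium-dependent membrane protein that binds plasminogen, fell from 2494 and 2525 to 1358 and 1266 CPM (log2 fold change -0.94). Bsg, which encodes the lactate transporter partner basigin, fell from 2007 and 1731 to 710.5 and 741 CPM (log2 fold change -1.36). Myh9, the heavy chain of non-muscle myosin, fell from 5393 and 4298 to 2861 and 2518 CPM (log2 fold change -0.85). Lars2, annotated as the mitochondrial leucyl-tRNA synthetase, fell from 4149.9 ± 247 to 2545 ± 333 CPM, as did Gm42418 (log2 fold change -0.69). After mitochondrial mRNAs the largest gain was that of Calr, which encodes the chaperone calreticulin and rose from 773 and 849 to 1583 and 1527 CPM (log2 fold change 0.94). Eif4g1, a scaffold of translation initiation, rose from 999 and 1042 to 1616 and 1483 CPM (log2 fold change 0.60). Rnf213, a large ubiquitin ligase, rose from 414 ± 5.61 to 878 ± 125 CPM, and Ncl, the nucleolar protein nucleolin, from 713 ± 51.6 to 1175 ± 48.1 CPM.

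For 60 gene lists the share of members called was set beside the share of all genes tested. The lists share 32 of the 1775 tested genes they hold, so they are nearly but not fully separate. Counts of 4 or fewer members are given as descriptions. For larger counts, each tool, scaling, filter or left-out library that moved the count by over 1.5 times stands beside it. In every called gene of a list whose values are printed below, the libraries of the groups did not overlap.

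**Figure D2:**
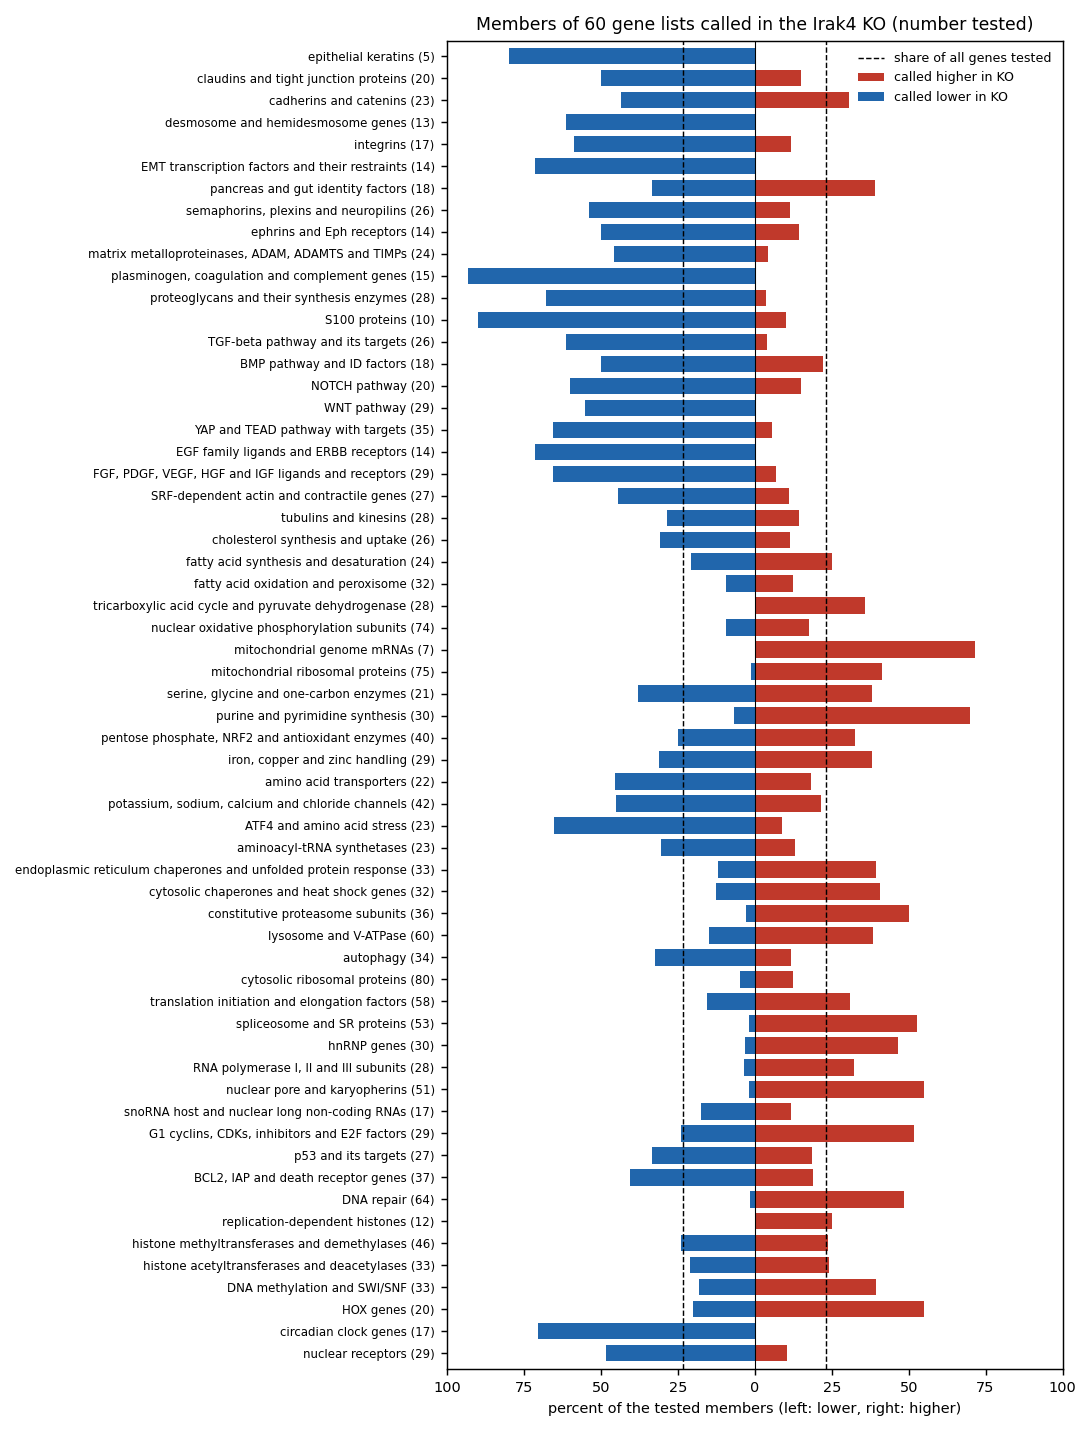
Share of the tested members of 60 gene lists called lower (blue, to the left) or higher (red, to the right) in the KO, in percent, with the number of tested members in brackets; dashed lines mark the shares of all 12339 genes tested, 23.5% lower and 23.2% higher. The plasminogen, S100, keratin, EGF and EMT transcription factor lists reach furthest to the left, and the mitochondrial genome, nucleotide synthesis, HOX and nuclear pore lists furthest to the right.

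Genes of epithelial structure were called lower more often than higher in the KO. All 4 called members of 5 tested keratin genes fell. Krt18, a filament protein of simple epithelia, fell from 2370.2 and 2280.5 to 1288 and 1225 CPM (log2 fold change -0.89, SE 0.10, adjusted p = 3.2e-05). Krt19, its ductal relative, fell from 2317 and 2197 to 1093 and 1235 CPM (log2 fold change -0.95). Krt8, the partner of Krt18, fell from 1619 and 1539 to 1113 and 1098 CPM (log2 fold change -0.51). In both KO libraries these 3 mRNAs were lower than in both wild-type libraries and were still above 1000 CPM. Desmosome and hemidesmosome genes fell in 8 of 13 and rose in 0, with a median log2 fold change of -0.57 (lower in 5 without the first wild-type library). Pkp1, a plakophilin that links desmosomes to keratin, fell from 48.0 and 40.5 to 6.27 and 5.84 CPM (log2 fold change -2.86, SE 0.26, adjusted p = 1.2e-05). Pkp2 fell from 108 and 100.5 to 58.8 and 57.2 CPM. Dst, which encodes the plakin dystonin, fell from 1680.2 and 1429 to 923 and 834 CPM (log2 fold change -0.82).

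Claudins and other tight junction genes fell in 10 of 20 and rose in 3, with a median of -0.25 (lower in 5 without either single wild-type library, 6 without the first KO library). Cldn6, a claudin of embryonic epithelia, fell from 15.8 and 17.98 to 0.752 and 0.573 CPM (log2 fold change -4.62, SE 0.27, adjusted p = 5.8e-07). Tjp1, the scaffold ZO-1, fell from 649 and 608 to 464 and 448 CPM (log2 fold change -0.46). Patj and Ocln, which encode a polarity scaffold and occludin, rose by 0.82 and 0.65 on the log2 scale, the latter not called with DESeq2 or without the first wild-type or the second KO library. Cadherins and catenins were divided, with 10 of 23 lower and 7 higher. Celsr2 and Pcdh1 fell, with log2 fold changes of -1.30 and -1.17. Cdh5, the cadherin that defines endothelium, rose from 2.97 and 3.62 to 15.9 and 30.5 CPM (log2 fold change 2.77, SE 0.48, adjusted p = 6.6e-04). Fat4, a giant cadherin of planar polarity, rose by 1.88. Of the other defining endothelial genes, the receptor Kdr was called lower, from 1.54 and 1.66 to 0.0836 and 0.115 CPM. Pecam1 was at 0.119 and 0 CPM in wild type and at 0 in both KO libraries. In all, 1 endothelial marker was higher and 1 lower, and 6 of 8 were under 1 CPM in all 4 libraries.

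Integrin genes fell in 10 of 17 and rose in 2, with a median of -0.94. Itga2, a subunit of a collagen receptor, fell from 342 and 315 to 49.1 and 49.4 CPM (log2 fold change -2.74, SE 0.09, adjusted p = 1.1e-08). Itgb6, the partner of the alpha v chain on epithelia, fell from 5.75 ± 0.574 to 0.438 ± 0.0286 CPM (log2 fold change -3.69). Itga5, the fibronectin receptor chain, fell from 248 and 244 to 123.2 and 103 CPM (log2 fold change -1.12). Every one of these was lower in both KO libraries. Itgb7, a leukocyte integrin chain, rose against the list from 2.53 ± 0.12 to 6.14 ± 0.881 CPM (log2 fold change 1.27).

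Transcription factors of epithelial state fell whether they favour or restrain mesenchymal change: of 14 tested, 10 fell and 0 rose, with a median of -0.54. Ehf, an ETS factor of epithelia, fell from 49.8 and 55.4 to 9.03 and 5.39 CPM (log2 fold change -2.83, SE 0.18, adjusted p = 9.5e-07). Its relative Elf3 fell from 35.6 and 34.1 to 15.6 and 16.2 CPM (log2 fold change -1.13). Snai1 and Zeb1, which repress epithelial genes, both fell. Snai1 went from 8.19 and 6.35 to 2.59 and 1.83 CPM (log2 fold change -1.67). Zeb1 went from 126 and 121 to 79.2 and 70.1 CPM (log2 fold change -0.72). Factors of pancreas and gut identity did not move together, with 7 of 18 higher, 6 lower and a median of -0.08. Pdx1, the homeobox factor of the pancreas, rose from 51.2 and 57.5 to 107 and 128 CPM (log2 fold change 1.11, SE 0.14, adjusted p = 1.0e-04). Gata4 rose from 9.26 and 10.9 to 23.7 and 26.01 CPM (log2 fold change 1.29). Cdx2, the homeobox factor of the intestine, rose from 51.9 and 47.7 to 90.8 and 98.7 CPM (log2 fold change 0.93). Lgals4, a gut galectin, rose from 7.84 and 9.38 to 20.5 and 29.1 CPM. Both KO libraries were above both wild-type libraries for these 4 genes. Among the members that fell, Sox9, also a ductal marker, went from 305 and 248 to 166 and 142 CPM (log2 fold change -0.84). Muc1, a mucin of ductal cells, fell from 16.1 ± 0.815 to 8.37 ± 0.334 CPM (log2 fold change -0.94).

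Markers of the cell types a pancreatic tumour culture could hold were measured beside these. All 9 tested epithelial or ductal markers of 10 fell, and their summed level was 10801 and 10939 CPM in wild type and 5017 and 5328 in the KO. The remaining one, Epcam, had a single count over the 4 libraries, against the usual pattern of epithelial cells, while the keratins and Cdh1 were abundant. Fibroblast or stellate markers were under 1 CPM in all 4 libraries for 8 of 12, with Dcn, Lum, Thy1 and Pdpn at 0 throughout. Of the 4 tested, 1 was called higher and 0 lower. The one called, Col3a1, rose from 0.594 and 0.195 to 9.19 and 6.07 CPM. Col1a1 was at 12.8 and 11.5 CPM in wild type and 11.9 and 7.45 in the KO and was not called. Leukocyte markers were under 1 CPM for 9 of 12, with Ptprc, Adgre1, Lyz2 and Cd3e at 0, and their sum went from 75.6 and 91.4 to 321 and 329 CPM, most of it Gpnmb in the KO. Acinar markers were under 1 CPM for 8 of 10 and endocrine markers for all 8. In bulk RNA, fewer cells of a type and less RNA per cell cannot be told apart.

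Genes of plasminogen activation, coagulation and complement fell more uniformly than any other list of over 5 members: 14 of 15 tested fell and 0 rose, with a median of -1.22. F3, tissue factor, which starts coagulation, fell from 609 and 574 to 109 and 136 CPM (log2 fold change -2.27, SE 0.13, adjusted p = 4.7e-07). Plat, the tissue plasminogen activator, fell from 348 and 331 to 99.8 and 99.6 CPM (log2 fold change -1.77). C3, the central complement protein, fell from 29.7 and 31.7 to 2.17 and 5.04 CPM (log2 fold change -3.16). Thbd, thrombomodulin, which turns thrombin to an anticoagulant role, fell from 28.7 and 29.6 to 11.3 and 9.97 CPM (log2 fold change -1.45). No KO library reached a wild-type level in any of these. Matrix metalloproteinases, ADAM and ADAMTS proteases and their inhibitors fell in 11 of 24 and rose in 1, which was Adam12. Mmp13, a collagenase, fell from 24.2 and 28.4 to 1.003 and 4.47 CPM (log2 fold change -3.38). Mmp10, stromelysin 2, fell from 11.04 and 8.70 to 0.167 and 0.458 CPM (log2 fold change -5.01). Adam8, a sheddase, fell from 88.0 and 84.0 to 33.1 and 28.5 CPM (log2 fold change -1.47).

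The promoters of 3 of these genes are shown because each holds the AP-1 motif tgactca, read on either strand, in the 150 bases before the start. They were taken from RefSeq on GRCm38.p6, 5′ to 3′ along the gene's strand, with the motif in capitals; all lie on the plus strand, F3 at chr3:121723387-121723536, Mmp13 at chr9:7272364-7272513 and Mmp10 at chr9:7502192-7502341.
F3: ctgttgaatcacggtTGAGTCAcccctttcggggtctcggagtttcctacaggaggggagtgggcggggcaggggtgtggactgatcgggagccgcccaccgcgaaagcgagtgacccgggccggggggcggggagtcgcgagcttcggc
Mmp13: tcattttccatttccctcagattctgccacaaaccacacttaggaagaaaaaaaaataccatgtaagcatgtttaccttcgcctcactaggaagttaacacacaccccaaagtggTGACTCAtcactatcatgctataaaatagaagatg
Mmp10: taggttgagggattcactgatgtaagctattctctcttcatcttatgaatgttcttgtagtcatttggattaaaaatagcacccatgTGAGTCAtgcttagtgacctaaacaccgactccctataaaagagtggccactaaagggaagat
The motif begins 135 bases before the start in F3, where it lies on the opposite strand, 35 bases before it in Mmp13 and 63 in Mmp10, again on the opposite strand. Of 12296 windows from 250 bases before to 50 after the starts of 9608 tested genes, 3.88% held this motif. The share was 5.48% for genes called lower and 3.52% for genes called higher. Windows were found for 76.1% of the genes called lower and 81.9% of those called higher, so the comparison of shares is void as a check and stands as a description, and a match is not a site of binding.

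**Figure D3:**
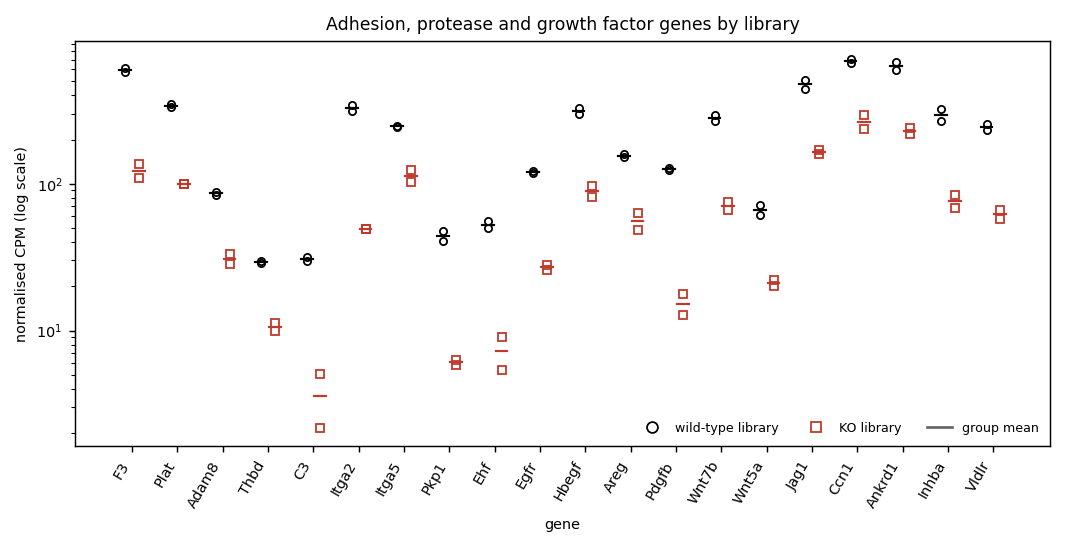
Normalised CPM (log scale) of 20 called genes for adhesion, proteases, growth factors and stress, with 1 circle for each wild-type library, 1 square for each KO library and a bar at each group mean. Both KO squares lie below both wild-type circles for every gene, with the largest ratio for C3, at 3.61 against 30.7 CPM on average.

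Other extracellular groups also held more falls than rises. Proteoglycan genes and the enzymes that build them fell in 19 of 28 and rose in 1, with a median of -0.49. Acan, the cartilage proteoglycan aggrecan, fell from 77.9 and 65.4 to 19.9 and 30.9 CPM (log2 fold change -1.51). Sdc4, a syndecan, fell from 488 and 433 to 273 and 251 CPM (log2 fold change -0.81). Hpse, which encodes heparanase, fell from 28.6 ± 4.91 to 9.01 ± 0.261 CPM, and Chst15, a sulfotransferase of chondroitin, from 27.8 ± 4.197 to 6.79 ± 0.205 CPM. All 10 tested S100 genes, which encode small calcium-binding proteins, were called, 9 of them lower. S100a6 fell from 2425 and 2451 to 1401 and 1855 CPM (log2 fold change -0.58), whereas S100a4 rose against the list, from 461 ± 2.50 to 661 ± 26.9 CPM (log2 fold change 0.52). Semaphorins, plexins and neuropilins, which guide axons and vessels, fell in 14 of 26 and rose in 3. Sema3f fell from 43.1 and 41.4 to 13.5 and 16.4 CPM (log2 fold change -1.51). Sema7a fell from 5.94 and 4.89 to 0.334 and 0.802 CPM (log2 fold change -3.30). Nrp1, a neuropilin that binds both semaphorins and VEGF, rose from 41.6 and 45.2 to 108 and 134 CPM (log2 fold change 1.47, SE 0.15, adjusted p = 1.8e-05). Ephrins and Eph receptors fell in 7 of 14 and rose in 2. Epha2, a receptor abundant on tumour epithelium, fell from 465 and 429 to 302 and 278 CPM (log2 fold change -0.62), and Efnb1, a ligand, fell from 53.4 ± 2.10 to 25.7 ± 5.28 CPM (log2 fold change -1.07).

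Ligands and receptors of the growth factor families held many falls and few rises. Of 14 tested EGF family ligands, ERBB receptors and their feedback inhibitors, 10 fell and 0 rose, with a median of -1.01. Egfr, the receptor, fell from 121 and 117 to 25.99 and 27.8 CPM (log2 fold change -2.15, SE 0.11, adjusted p = 2.9e-07). Among its ligands Areg fell from 159 and 152 to 63.1 and 48.6 CPM (log2 fold change -1.47). Tgfa fell from 128 and 114 to 52.8 and 53.6 CPM (log2 fold change -1.18). Btc fell from 79.7 and 78.6 to 33.2 and 37.0 CPM (log2 fold change -1.18), and Nrg1, a ligand of ERBB3, fell from 15.8 ± 1.92 to 4.84 ± 0.843 CPM. Receptor and ligands were each lower in both KO libraries. The FGF, PDGF, VEGF, HGF and IGF list fell in 19 of 29 and rose in 2. Pdgfb, which encodes a platelet-derived growth factor chain, fell from 127 and 123.4 to 17.7 and 12.8 CPM (log2 fold change -3.01, SE 0.14, adjusted p = 8.9e-08). Igfbp4, which binds insulin-like growth factors, was abundant and fell from 1344 and 1320.2 to 407 and 449 CPM (log2 fold change -1.64), and Igfbp7 fell from 605 and 588 to 259 and 298 CPM (log2 fold change -1.10).

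Genes of developmental pathways also held more falls than rises. WNT pathway genes fell in 16 of 29 and rose in 0, with a median of -0.72. The ligands Wnt7b and Wnt5a both fell. Wnt7b went from 292 and 267 to 75.1 and 65.9 CPM (log2 fold change -1.98). Wnt5a went from 72.0 and 61.5 to 20.1 and 22.003 CPM (log2 fold change -1.66). The Frizzled receptor Fzd4 fell from 10.7 ± 0.179 to 1.74 ± 0.0255 CPM, the secreted inhibitor Dkk2 from 59.2 ± 0.278 to 15.5 ± 0.473 CPM, and Rnf43, which removes Frizzled from the membrane, from 10.9 ± 0.737 to 4.41 ± 0.567 CPM. NOTCH genes fell in 12 of 20 and rose in 3. The ligand Jag1 fell from 512 and 442 to 170.1 and 160.3 CPM (log2 fold change -1.53, SE 0.11, adjusted p = 1.9e-06). The target Hey1 fell from 21.1 and 18.96 to 5.93 and 6.42 CPM (log2 fold change -1.70). Rbpj, the DNA-binding partner of NOTCH, fell from 85.3 and 78.2 to 46.3 and 45.4 CPM (log2 fold change -0.83). A different ligand, Dll1, rose from 5.41 ± 0.0908 to 10.4 ± 0.245 CPM (log2 fold change 0.93). For YAP and TEAD, the factors that act below the Hippo kinases, 23 of 35 genes fell and 2 rose, with a median of -0.45. The targets Ccn1 and Ankrd1 both fell. Ccn1 went from 705 and 667 to 293 and 235 CPM (log2 fold change -1.38). Ankrd1 went from 672 and 596 to 241 and 219 CPM (log2 fold change -1.46). The members that rose were Yap1 itself, by 0.25, and Tead2, by 0.41. Yap1 was not called with DESeq2 or with any 1 wild-type or KO library left out.

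TGF-beta genes mostly fell, while BMP genes moved both ways. Of 26 tested TGF-beta genes, 16 fell and 1 rose. Inhba, which encodes the activin A chain, fell from 321 and 266 to 84.4 and 68.6 CPM (log2 fold change -1.93, SE 0.18, adjusted p = 1.2e-05). The target Ccn2, connective tissue growth factor, fell from 702 and 645 to 306 and 242 CPM (log2 fold change -1.30). Ltbp4, a latent TGF-beta binding protein, rose from 39.1 ± 1.74 to 90.5 ± 1.23 CPM (log2 fold change 1.21). Of 18 BMP genes 9 fell and 4 rose. The ligands Bmp4 and Bmp2 both fell. Bmp4 went from 17.9 and 14.2 to 2.67 and 4.13 CPM (log2 fold change -2.26). Bmp2 went from 38.5 and 36.3 to 18.97 and 17.2 CPM (log2 fold change -1.04). Among the ID factors, which block basic helix-loop-helix proteins, Id3 rose from 23.04 and 23.4 to 86.8 and 104 CPM (log2 fold change 2.04, SE 0.16, adjusted p = 3.4e-06). Id2 fell from 42.7 and 45.4 to 19.97 and 20.9 CPM (log2 fold change -1.11), so the family did not move as one. Genes of actin and contractile proteins that depend on SRF fell in 12 of 27 and rose in 3 (lower in 6 without the first wild-type library). Pdlim5 fell from 359 and 327 to 185 and 182 CPM (log2 fold change -0.90). Mylk, the myosin light chain kinase, fell from 26.6 and 27.6 to 14.5 and 18.5 CPM (log2 fold change -0.73). Tubulin and kinesin genes had 8 of 28 lower and 4 higher (lower in 4 without either single wild-type library, 5 with DESeq2 or without the second KO library); Tubb2b, a beta tubulin, fell from 13.1 ± 1.454 to 4.61 ± 1.99 CPM and Kif3c, a kinesin motor, from 82.6 ± 2.71 to 43.4 ± 4.95 CPM.

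Genes of nucleotide synthesis were mostly higher in the KO. Of 30 tested purine and pyrimidine genes 21 rose and 2 fell, with a median of 0.45. Rrm2, a subunit of ribonucleotide reductase, rose from 136 and 173 to 349 and 316 CPM (log2 fold change 1.10, SE 0.13, adjusted p = 4.5e-05). Umps and Dhodh, which complete the synthesis of UMP, both rose. Umps went from 37.6 and 42.9 to 81.6 and 80.8 CPM (log2 fold change 1.01). Dhodh went from 9.97 and 12.6 to 24.6 and 21.9 CPM (log2 fold change 1.04). The members that fell were Hprt, the salvage enzyme of purines, with a log2 fold change of -0.25, and Rrm2b, the p53-dependent subunit of the reductase, with one of -0.38. Neither was called with DESeq2, or with 1 wild-type library or the first KO library left out. Enzymes of serine, glycine and one-carbon metabolism split evenly, 8 of 21 higher and 8 lower (lower in 5 without the second KO library). Mat2a, which makes S-adenosylmethionine, rose from 79.9 and 91.9 to 187 and 188 CPM (log2 fold change 1.12). Mthfd1, the cytosolic folate enzyme, rose from 59.5 and 65.3 to 142 and 127 CPM (log2 fold change 1.11). Gcsh, of the glycine cleavage system, rose from 36.7 and 37.1 to 70.9 and 74.4 CPM (log2 fold change 0.97). The members that fell included Aldh1l2, a mitochondrial folate enzyme, from 83.7 ± 1.99 to 32.0 ± 10.4 CPM, and Cth, which makes cysteine, from 22.7 ± 0.214 to 7.68 ± 0.487 CPM.

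Promoters of 3 genes that rose are shown for the E-box cacgtg, which MYC and other factors bind, and the E2F motif tttcccgc, each searched on both strands. The sequences are from RefSeq on GRCm38.p6, 5′ to 3′ along the gene's strand, with the motif in capitals. Nme1, a nucleoside diphosphate kinase, is on the minus strand at chr11:93968273-93968422, Polr2a, the large subunit of RNA polymerase II, on the minus strand at chr11:69758634-69758783, and Hells, a chromatin remodeller, on the plus strand at chr19:38930840-38930989.
Nme1: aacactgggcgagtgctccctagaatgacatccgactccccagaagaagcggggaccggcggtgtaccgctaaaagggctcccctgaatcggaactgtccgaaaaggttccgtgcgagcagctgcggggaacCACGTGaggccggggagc
Polr2a: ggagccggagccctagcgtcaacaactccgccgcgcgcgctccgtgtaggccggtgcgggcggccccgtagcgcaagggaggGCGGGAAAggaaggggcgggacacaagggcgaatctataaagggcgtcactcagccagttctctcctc
Hells: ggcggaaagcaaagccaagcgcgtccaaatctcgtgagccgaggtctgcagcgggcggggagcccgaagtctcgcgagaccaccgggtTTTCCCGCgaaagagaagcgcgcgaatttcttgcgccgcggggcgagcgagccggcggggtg
The E-box of Nme1 begins 18 bases before the start, and the E2F motif 68 bases before it in Polr2a, on the opposite strand, and 62 in Hells. The E-box was in 10.0% of all windows, in 13.6% of those of genes called higher and in 8.19% of those called lower. For tttcccgc the shares were 2.03%, 2.80% and 1.42% in the same order, and for tttggcgc, a further E2F motif, 0.935%, 1.74% and 0.474%. For ccaat, the NF-Y motif, they were 37.9%, 39.4% and 34.9%, and for tgacgtca, the cAMP response element, 3.09%, 3.66% and 2.64%. Each motif was counted on its own, whether or not its letters overlapped another. As above, these are descriptions of sequence, and the median GC content of the windows was 60.7% in genes called higher and 62.0% in genes called lower. Nme1 rose from 27.4 and 31.5 to 61.5 and 62.5 CPM (log2 fold change 1.07). Hells rose from 68.3 and 72.9 to 135 and 122 CPM (log2 fold change 0.86).

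Mitochondrial genes rose in part. Mitochondrial ribosomal protein genes rose in 31 of 75 and fell in 1, with a median of 0.25 (higher in 18 without the first wild-type library). Mrps6 rose from 27.3 and 31.3 to 51.2 and 50.2 CPM (log2 fold change 0.79, SE 0.11, adjusted p = 1.5e-04), and Mrpl14 was the member that fell, though it was not called without the first wild-type or the first KO library. Enzymes of the tricarboxylic acid cycle and of pyruvate entry rose in 10 of 28 and fell in 0 (higher in 5 without the first wild-type library, 6 without the first KO library). Mpc2, a subunit of the mitochondrial pyruvate carrier, rose from 11.3 and 9.77 to 17.97 and 22.8 CPM (log2 fold change 0.95). Idh3a, an isocitrate dehydrogenase subunit, rose from 67.8 and 71.9 to 105 and 99.0 CPM (log2 fold change 0.55). Nuclear subunits of oxidative phosphorylation were called below the background in both directions, 13 of 74 higher and 7 lower (higher in 3 without the first wild-type library, 6 without either single KO library, and lower in 3 without the first KO library, 4 with DESeq2 or without either single wild-type library or the second KO library). Complex I subunits went both ways. Ndufv3 fell from 128 and 111 to 62.4 and 62.0 CPM (log2 fold change -0.94), whereas Ndufa5 rose from 28.3 ± 1.68 to 47.3 ± 2.67 CPM. mRNAs of the mitochondrial genome rose in 5 of 7 (higher in 0 with DESeq2 or without the first wild-type library or the second KO library). mt-Cytb rose from 2174 and 2719.8 to 3803 and 4751 CPM (log2 fold change 0.81, SE 0.20, adjusted p = 0.00625), a call lost with DESeq2 and without the first wild-type or the second KO library.

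Lipid genes were called in both directions, those of fatty acid synthesis at close to the background share each way. Of 24 fatty acid synthesis genes 6 rose and 5 fell (higher in 3 without the first wild-type library). Fasn, the fatty acid synthase, rose from 473 and 483 to 1006 and 958 CPM (log2 fold change 1.04, SE 0.12, adjusted p = 4.5e-05). Acaca, which makes its malonyl-CoA, rose from 39.1 and 40.3 to 77.0 and 67.7 CPM (log2 fold change 0.87). Me1, the malic enzyme that supplies NADPH, fell from 194 and 184 to 90.3 and 80.2 CPM (log2 fold change -1.14). Acsl4, which loads polyunsaturated fatty acids onto CoA, fell from 256 ± 0.351 to 132 ± 5.38 CPM, and Acss2, which makes acetyl-CoA from acetate, from 17.95 ± 0.869 to 8.60 ± 0.00947 CPM. Cholesterol genes fell in 8 of 26 and rose in 3 (lower in 4 without the second KO library, 5 without the second wild-type library). Srebf2, the transcription factor of the pathway, fell from 799 and 784 to 543 and 515 CPM (log2 fold change -0.58). Fatty acid oxidation and peroxisome genes were called in 4 and 3 of 32, fewer than the background. Cpt1a, the carnitine transferase of fatty acid oxidation, rose from 64.0 and 66.4 to 104 and 115 CPM (log2 fold change 0.74), and the nuclear receptor Ppard fell from 176 ± 14.98 to 71.0 ± 1.71 CPM (log2 fold change -1.31).

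Metal handling and redox genes held some of the larger single changes. Of 29 iron, copper and zinc genes 11 rose and 9 fell. Cp, ceruloplasmin, a copper-bearing ferroxidase, fell from 425 and 443 to 27.7 and 36.3 CPM (log2 fold change -3.77, SE 0.12, adjusted p = 9.7e-09). Atp7b, the copper pump that loads it, fell from 48.9 and 42.0 to 9.44 and 5.16 CPM (log2 fold change -2.59). Lcn2, lipocalin 2, which binds iron siderophores, fell from 33.4 and 39.9 to 4.26 and 11.1 CPM (log2 fold change -2.32). In these 3 genes both KO libraries were lower. Slc40a1, ferroportin, the iron exporter, rose from 19.7 and 20.1 to 47.1 and 56.0 CPM (log2 fold change 1.37). Steap3, a ferrireductase, rose from 19.5 and 20.4 to 43.5 and 44.2 CPM (log2 fold change 1.13). The pentose phosphate, NRF2 and antioxidant list had 13 of 40 higher and 10 lower (higher in 6 without the first wild-type library, 8 without the second KO library, and lower in 5 without the second wild-type library, 6 without the second KO library). Slc7a11, the cystine transporter, fell from 96.4 and 104 to 35.0 and 18.3 CPM (log2 fold change -1.88, SE 0.21, adjusted p = 3.8e-05). Prdx5, a peroxiredoxin, fell from 301 and 277 to 133 and 158 CPM (log2 fold change -0.99), and Gstt1, a glutathione transferase, rose from 16.6 ± 1.13 to 38.99 ± 5.15 CPM. Amino acid transporters fell in 10 of 22 and rose in 4. Slc7a5, the leucine transporter LAT1, fell from 558 and 511 to 369 and 290.4 CPM (log2 fold change -0.70). Ion channel genes fell in 19 of 42 and rose in 9 (higher in 5 without the first wild-type library). Scn8a, a voltage-gated sodium channel, fell from 17.2 and 13.97 to 3.59 and 2.29 CPM (log2 fold change -2.36), and Trpv4, a calcium-permeable channel, fell from 10.4 ± 0.157 to 1.41 ± 0.372 CPM.

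Stress and folding genes differed from list to list. Genes of ATF4 and the amino acid response fell in 15 of 23 and rose in 2, with a median of -0.55. Vldlr fell from 254 and 234 to 66.1 and 57.6 CPM (log2 fold change -1.98, SE 0.17, adjusted p = 7.3e-06). Ddit4, an inhibitor of mTORC1, fell from 322 and 268 to 104 and 92.5 CPM (log2 fold change -1.58). Trib3, a pseudokinase, fell from 50.9 and 50.1 to 30.8 and 13.9 CPM (log2 fold change -1.14). Nupr1 and Chac1, both stress-induced, fell with log2 fold changes of -1.33 and -1.13. Aminoacyl-tRNA synthetase genes fell in 7 of 23 and rose in 3 (lower in 4 without the second KO library). Cars, for cysteine, fell from 286 and 279 to 182 and 152 CPM (log2 fold change -0.76). Sars, for serine, fell from 508 and 509 to 352 and 345 CPM (log2 fold change -0.54), while Hars, for histidine, rose from 71.6 ± 2.34 to 105 ± 1.73 CPM. Chaperones and response genes of the endoplasmic reticulum rose in 13 of 33 and fell in 4 (higher in 7 without the first wild-type library, 8 without the first KO library). Hyou1, a chaperone of the lumen, rose from 229 and 247 to 432 and 389.8 CPM (log2 fold change 0.79), beside Calr, calreticulin, and Sdf2l1, which rose from 36.8 ± 2.06 to 66.6 ± 1.08 CPM. The sensors Ern1 and Atf6 and the oxidase Ero1l fell. Ero1l fell from 959 and 806 to 185 and 128 CPM (log2 fold change -2.49, SE 0.31, adjusted p = 7.6e-05) and Ern1 from 168 ± 3.49 to 83.0 ± 2.10 CPM.

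Cytosolic chaperones rose in 13 of 32 and fell in 4 (higher in 6 without the first KO library, 7 without the first wild-type library, 8 without the second KO library). This list also holds heat shock genes and some chaperones of mitochondria. Among the latter Hspd1 and Hspe1, the chaperonin pair, both rose. Their exons overlap on opposite strands, so their reads may be shared. Hspd1 went from 173 and 196 to 321 and 291 CPM (log2 fold change 0.73). Hspe1 went from 36.9 and 36.7 to 59.6 and 58.4 CPM (log2 fold change 0.68). Proteasome subunits rose in 18 of 36 and fell in 1, with a median of 0.27 (higher in 11 without the first wild-type library or the first KO library). Psmc5, an ATPase of the regulatory particle, rose from 65.5 and 77.0 to 129 and 126 CPM (log2 fold change 0.84, SE 0.12, adjusted p = 2.0e-04), and Psmd8, a lid subunit, was the member that fell, from 386 ± 22.02 to 238 ± 0.286 CPM (log2 fold change -0.70). Lysosome and V-ATPase genes rose in 23 of 60 and fell in 9 (lower in 5 without the second wild-type library or the first KO library). Gusb, beta-glucuronidase, rose from 56.0 and 70.3 to 118 and 115 CPM (log2 fold change 0.88). Arsb, an arylsulfatase, rose from 29.1 and 35.7 to 63.1 and 59.8 CPM (log2 fold change 0.92). Ctsh, a cathepsin, fell from 83.2 and 87.6 to 30.3 and 35.9 CPM (log2 fold change -1.38). Autophagy genes fell in 11 of 34 and rose in 4. Gabarapl1 and Wipi1, of the autophagosome membrane, both fell. Gabarapl1 went from 79.1 and 76.8 to 38.3 and 44.0 CPM (log2 fold change -0.93). Wipi1 went from 115 and 107 to 57.9 and 59.1 CPM (log2 fold change -0.92).

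**Figure D4:**
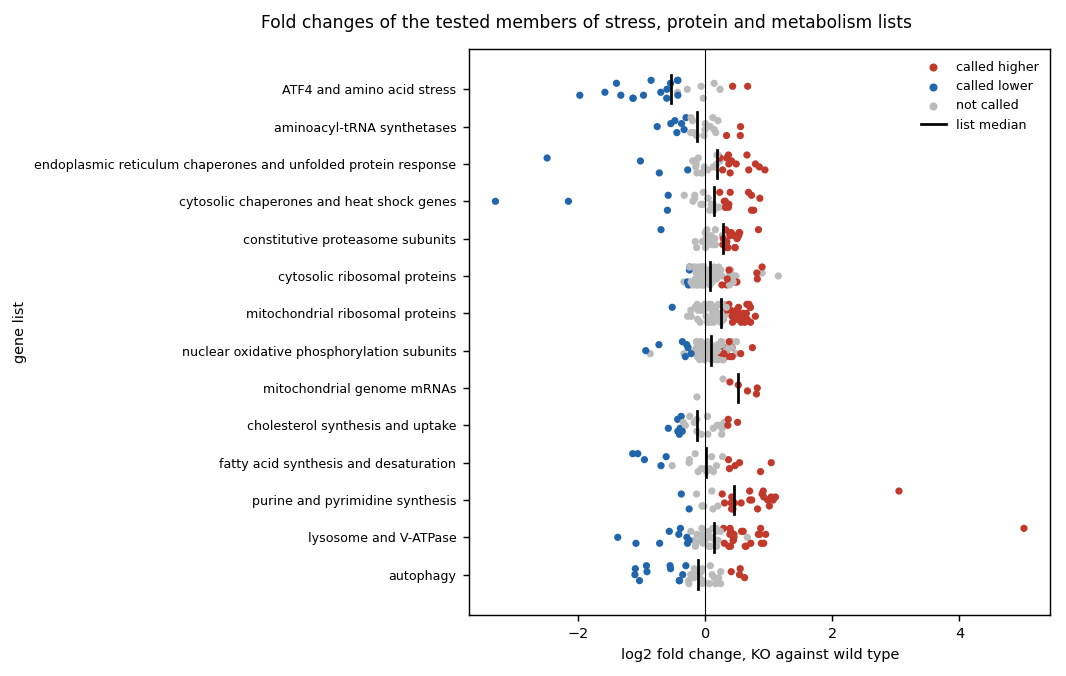
Log2 fold changes (horizontal, KO against wild type) of the tested members of 14 lists for stress, protein turnover and metabolism, 1 point per gene, red where called higher, blue where called lower and grey where not called, with a bar at each list's median. The median of the ATF4 list lies at -0.55 and that of the nucleotide list at 0.45, while ribosomal protein genes sit close to 0 at 0.07.

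Where genes of RNA processing and nuclear transport were called, nearly all rose. Spliceosome and SR protein genes rose in 28 of 53 and fell in 1, which was Sf3b1, and their median was 0.29. Srsf6, an SR splicing factor, rose from 146 and 157 to 244 and 260.3 CPM (log2 fold change 0.73). Sf3a2, of the U2 particle, rose from 58.5 and 53.8 to 94.3 and 98.3 CPM (log2 fold change 0.78, SE 0.10, adjusted p = 8.6e-05). hnRNP genes rose in 14 of 30 and fell in 1, which was Ptbp3 (higher in 9 without either single wild-type library or the first KO library). Hnrnpa2b1 rose from 1002 and 936 to 1283 and 1335 CPM (log2 fold change 0.43). Nuclear pore and karyopherin genes rose in 28 of 51 and fell in 1, which was Nup210l (higher in 14 without the first KO library, 16 without the first wild-type library). Nup93, of the inner pore ring, rose from 71.1 and 80.4 to 152 and 131 CPM (log2 fold change 0.90, SE 0.10, adjusted p = 4.9e-05). Rcc1, which charges Ran with GTP, rose from 40.7 and 47.3 to 87.9 and 84.8 CPM (log2 fold change 0.97). None of Sf3b1, Ptbp3 and Nup210l was called without the first wild-type library. Subunits of RNA polymerases rose in 9 of 28 and fell in 1 (higher in 5 with DESeq2 or without the first wild-type library or the first KO library). Polr2a rose from 256 and 244 to 542 and 511 CPM (log2 fold change 1.08). Polr1b, of polymerase I, rose from 34.7 and 36.2 to 64.5 and 61.8 CPM (log2 fold change 0.83).

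Translation genes were nearer to the background. Initiation and elongation factors rose in 18 of 58 and fell in 9 (higher in 10 without the first wild-type library, and lower in 3 without the first wild-type library or the second KO library). Eif2b4 and Eif2b1, of the exchange factor eIF2B, rose from 16.6 ± 0.144 to 30.5 ± 0.0436 CPM and from 30.8 ± 0.615 to 50.4 ± 3.96 CPM, and Eif4ebp1, which restrains eIF4E, fell from 276 ± 5.97 to 175 ± 27.1 CPM (log2 fold change -0.65). Cytosolic ribosomal protein genes were called in fewer members than the background, 10 of 80 higher and 4 lower (higher in 3 with DESeq2 or without the first KO library, 4 without either single wild-type library, 6 without the second KO library). Rpl10a rose from 31.1 and 31.4 to 57.6 and 52.5 CPM (log2 fold change 0.82). These genes have many pseudogenes, and how shared reads were counted is not known, so their counts are uncertain. Of 17 snoRNA host and nuclear long non-coding RNAs 2 rose and 3 fell. Malat1, an abundant nuclear RNA, fell from 4742 and 3719 to 2789 and 3251 CPM (log2 fold change -0.49), a call lost without the first wild-type or the first KO library. Kcnq1ot1 fell from 109 and 82.7 to 62.7 and 51.5 CPM (log2 fold change -0.74).

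Genes of cell cycle entry and of DNA repair were called higher more often than lower. Of 29 G1 cyclins, CDKs, inhibitors and E2F factors 15 rose and 7 fell, with a median of 0.32 (higher in 8 without the first KO library). Ccne1, the cyclin that drives entry into S phase, rose from 7.01 and 9.28 to 26.6 and 24.5 CPM (log2 fold change 1.64, SE 0.17, adjusted p = 2.7e-05). Cdkn1a, the CDK inhibitor p21, fell from 208 and 176 to 35.3 and 19.1 CPM (log2 fold change -2.79, SE 0.29, adjusted p = 2.7e-05), whereas the inhibitor Cdkn2c rose from 31.1 ± 1.34 to 64.7 ± 3.26 CPM (log2 fold change 1.05). DNA repair genes rose in 31 of 64 and fell in 1, which was Rbbp8, not called with DESeq2 or with any 1 wild-type or KO library left out, with a median of 0.32 (higher in 20 without the first KO library). Fanca, of the Fanconi complex, rose from 31.5 and 34.7 to 87.3 and 74.0 CPM (log2 fold change 1.29). Its KO libraries both exceeded those of wild type. p53 and its targets fell in 9 of 27 and rose in 5 (higher in 3 without the first wild-type library). Plk2 and Trp53inp1 fell, with log2 fold changes of -1.24 and -1.08. Tigar, which lowers fructose 2,6-bisphosphate, rose from 12.6 ± 1.31 to 25.6 ± 3.97 CPM. BCL2 family, IAP and death receptor genes fell in 15 of 37 and rose in 7 (higher in 3 without the first wild-type library, 4 with DESeq2 or without the second wild-type library or the second KO library). Pmaip1, the BH3-only protein NOXA, fell from 21.5 and 22.5 to 2.09 and 2.52 CPM (log2 fold change -3.26, SE 0.19, adjusted p = 5.1e-07). Bcl2l11, or BIM, fell from 71.1 and 59.1 to 21.1 and 23.6 CPM (log2 fold change -1.54). Cflar, which blocks caspase 8, fell from 192 and 184 to 105 and 97.3 CPM (log2 fold change -0.89), so death-promoting and death-blocking members fell alike.

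**Figure D5:**
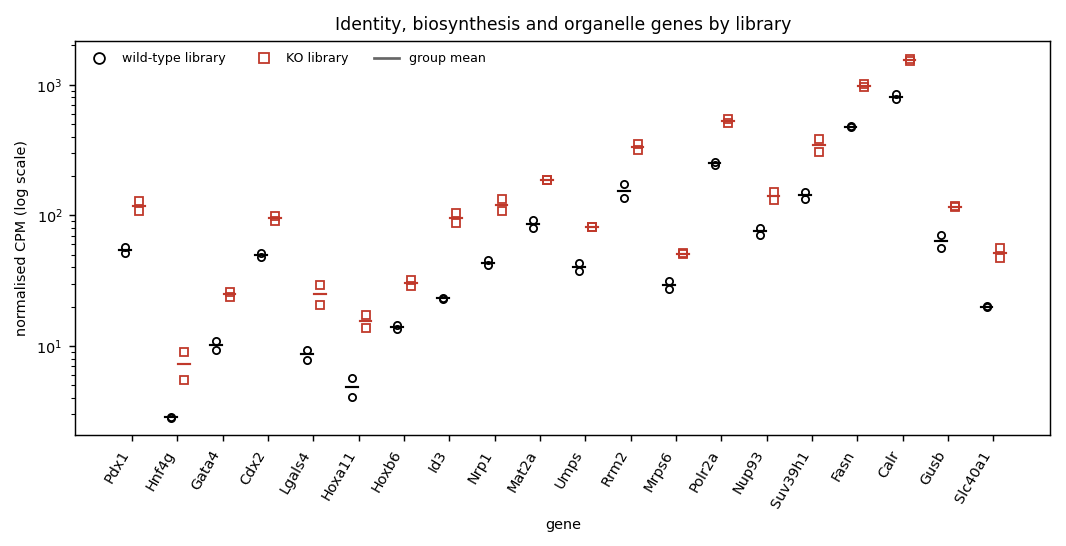
Normalised CPM (log scale) of 20 called genes for cell identity, biosynthesis, nuclear and organelle functions, with 1 circle for each wild-type library, 1 square for each KO library and a bar at each group mean. Both KO squares lie above both wild-type circles for every gene, from Hnf4g at 7.28 against 2.84 CPM on average to Calr at 1555 against 811.

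Chromatin genes changed in both directions, with acetyltransferases and deacetylases called at close to the background share each way. Histone methyltransferases and demethylases had 11 of 46 higher and as many lower, close to the background (higher in 5 without the second wild-type library or the first KO library, 6 with DESeq2 or without the first wild-type library). Suv39h1, which methylates histone H3 at heterochromatin, rose from 133 and 151.2 to 307 and 384 CPM (log2 fold change 1.28, SE 0.16, adjusted p = 9.3e-05). Kdm7a, a demethylase, fell from 59.3 and 46.5 to 21.3 and 25.3 CPM (log2 fold change -1.18). Acetyltransferases and deacetylases had 8 of 33 higher and 7 lower (lower in 4 without the first wild-type library or the first KO library). Sirt1, an NAD-dependent deacetylase, rose from 9.499 and 10.4 to 22.6 and 22.8 CPM (log2 fold change 1.19). Hdac5 fell from 140.0 and 122.8 to 68.8 and 74.4 CPM (log2 fold change -0.88). DNA methylation and SWI/SNF genes rose in 13 of 33 and fell in 6 (higher in 8 without either single wild-type library or the first KO library, and lower in 3 without the second KO library). Uhrf1, which recruits the methyltransferase Dnmt1 at replication, rose from 116 and 125 to 244 and 205 CPM (log2 fold change 0.90). Tet2, which oxidises methylcytosine, fell from 151.1 ± 20.2 to 91.9 ± 5.04 CPM. Of 12 tested replication-dependent histone genes 3 rose and 0 fell. Most histone mRNAs of this class lack the poly(A) tail that the libraries were selected on, and near-identical copies share reads, so their levels are uncertain.

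HOX genes, which set position along the body axis, rose in 11 of 20 and fell in 4, with a median of 0.64 (higher in 7 without the first KO library). Hoxa11 rose from 4.04 and 5.67 to 13.7 and 17.3 CPM (log2 fold change 1.65, SE 0.24, adjusted p = 2.2e-04). Hoxa7 rose from 8.67 and 8.60 to 17.5 and 20.97 CPM (log2 fold change 1.15). In the B cluster Hoxb6 rose from 14.4 and 13.5 to 29.0 and 31.9 CPM (log2 fold change 1.13). Circadian clock genes fell in 12 of 17 and rose in 0, with a median of -0.62 (lower in 7 without the first wild-type library or the first KO library). Arntl, the BMAL1 gene of the core activator, fell from 46.7 and 42.6 to 25.2 and 21.9 CPM (log2 fold change -0.91). Bhlhe40, a repressor of the clock, fell from 549 and 513 to 243 and 195 CPM (log2 fold change -1.28, SE 0.16, adjusted p = 7.1e-05). Per1, of the negative arm, fell from 59.5 and 50.4 to 31.2 and 32.8 CPM (log2 fold change -0.78), so members of both arms fell. Nuclear receptor genes fell in 14 of 29 and rose in 3 (lower in 9 without the first KO library). Rara, a retinoic acid receptor, fell from 114 and 98.7 to 69.0 and 61.7 CPM (log2 fold change -0.70). Nr4a1, an immediate early orphan receptor, fell from 33.8 and 31.2 to 19.8 and 12.9 CPM (log2 fold change -0.96).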

How the data were processed

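RNA selected with oligo-dT, per the labels' protocols, was sequenced in 6 libraries, and each library has a file with 3 values for each of 41388 genes. Per the submitters' processing notes, the tools were bcl2fastq, STAR 2.0.4b, Subread and featureCounts 1.45, on GRCm38. In the sources used here neither an annotation release nor a strand setting is given. The raw counts per gene were used as the authors deposited them. The deposited CPM values are each count scaled to the library total, and the deposited RPKM values are those divided by gene length, per the file headers; recomputed from the counts they differed by at most 3.27e-11 and 7.64e-11, and neither was used in a test. Symbols came from GENCODE M21 for 40254 identifiers.

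The counts were fitted with edgeR 4.0.16 in R 4.3.3: filterByExpr with a minimum count of 10 and a minimum total of 15 (12339 genes kept, 29049 removed), TMM scaling, the quasi-likelihood test with 1 mean per group over all 6 libraries (3 residual degrees of freedom), and Benjamini-Hochberg adjustment. CPM values in the text use TMM-scaled library sizes. The standard error of a log2 fold change was its size divided by the square root of F. Wild-type libraries held 8880121 and 10615611 counts, KO libraries 11505983 and 8325604, and rescue libraries 7836296 and 7605328. Between libraries of a group the biological coefficient of variation came to 5.06% (wild type), 6.06% (KO) and 10.4% (rescue), and replicate libraries differed by more than sampling noise (chi-square per gene from 3.577 to 8.216), so none was counted as a duplicate. In simulated counts with 12127 genes, only a small part of the genes was changed, and in the KO libraries alone. Of genes changed by 1.5-fold 64.6% were called, of those changed by 2-fold 77.1% and of those changed by 4-fold 98.3%. Unchanged genes made up 5.56% of these calls. In the real comparison 46.8% of the genes tested were called, so the simulated shares need not carry over to it.

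The comparison, the 60 gene lists and the markers were chosen with earlier results of these data known. No set test was run. Some genes that these rules name are not reported here. Named genes were Irak4 and the first 25 genes by highest and by lowest fold change. The ranked genes had at least 5 CPM in the higher group and no overlap of the groups. They were described from rank 9 on, and some of earlier rank were given by their counts or as markers. Others were the 10 largest rises and falls in CPM, up to 6 called members of each list, and members that moved against their list. Of 389 genes named by these rules before such members, 79 overlap an exon on the opposite strand, and without a strand setting their reads may be shared. From the lists, 5 names that matched a symbol pattern but are not family members were dropped. Fold changes against 0 counts were set against 3 counts for the group as a whole, while count ratios carry exact 95% intervals. The alternatives were DESeq2 1.42.0, RLE scaling, no filter on low counts, wild-type and KO libraries alone, a replicate block and each library left out.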

Additional observations from a re-analysis of the deposited data

How the results depend on the processing

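No named gene reversed its direction under any of the 11 alternatives, and no gene called both as reported and under an alternative changed sign. Named genes other than Irak4 were picked for being called in these same libraries, which every alternative fitted again. A reversal was therefore unlikely from the outset, and its absence is no independent check. Of 398 named genes other than Irak4, 353 were called under every alternative and 45 lost the call under at least 1. Counts of genes higher and lower were 2036 and 2346 with DESeq2, 2770 and 2998 with RLE scaling, 2920 and 3095 without a filter, and 3254 and 3371 from the wild-type and KO libraries alone, against 2867 and 2905 as reported. With 1 library left out they ranged from 1688 to 3297 higher and from 2005 to 3414 lower. The lowest counts came without the first wild-type library, and leaving out a rescue library raised the counts. The cause was not tested. Rises made up 45.7% to 49.8% of the calls over the alternatives. Irak4 was called, with log2 fold changes of -0.84 without a filter (adjusted p = 2.32e-10) and -0.85 from the wild-type and KO libraries alone (4.23e-07), in edgeR's test. With 1 library left out its log2 fold change ranged from -0.89 to -0.80, and it was called without either rescue library. DESeq2 gave an adjusted p of 0.176.

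The labels number the libraries 1 and 2 in each group, but these numbers share nothing that the labels name. Deviations of same-numbered libraries correlated at 0.037 between wild type and KO, -0.153 between wild type and rescue and -0.192 between KO and rescue, so the numbers were not taken as pairs. With the replicate block 5 counts of list members moved by over 1.5 times, 2572 genes were higher and 2631 lower, and Irak4 had a log2 fold change of -0.87 (adjusted p = 0.0223).

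With 2 libraries a group, a gene that was not called is not shown to be unchanged. Low counts limit the lowest-expressed genes most, and any clone effect of the KO cannot be told apart from the loss of Irak4.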
